A study of Mus musculus with 18 samples.

Results

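The early secretory pathway genes described here are the genes of the deposited table whose symbol starts with Sec and a digit, Cop followed by a, b, e, g or z, Tmed and a digit, Trappc, Ssr and a digit, Spcs and a digit, or Srp and a digit. The pattern found 66 of the 10509 listed genes, and it uses names only, not measured values. Of the 66, 5 code for proteins of the signal recognition particle, 4 for the Sec61 translocon and its partners, 4 for the translocon-associated (TRAP) complex and 5 for signal peptidase. A further 11 belong to the COPII coat and its exit sites, 10 to the p24 cargo receptors, 8 to the COPI coat, 3 to the Sec22 family and 14 to the TRAPP tethering complex. The remaining pair, Sec14l1 and Sec14l4, match by name and code for lipid-binding proteins outside this route. Subunits that are not listed, or whose symbol does not match, are missing from these groups.

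The RNA came from pancreatic islets of mice fed a high-fat diet (HFD) for 12 weeks before the islets were taken at sacrifice. The knockout group (genotype NRK1_BKO, made with Ins1Cre) had 10 mice and the WT group (genotype NRK1_WT) had 8, and both groups received the diet. Ins1Cre acts in cells that use the Ins1 promoter, the beta cells, so the other cells of an islet were not targeted. The sources used here do not give strain, age, sex or whether WT mice carried Cre. Each library is named by its group and a number, KO 1 to KO 10 and WT 1 to WT 8, and the titles give an animal number for each.

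Proteins bound for secretion, insulin among them, enter the endoplasmic reticulum (ER) as they are made. The signal recognition particle brings the ribosome to the membrane, the Sec61 channel and the TRAP complex let the chain through, and signal peptidase cuts off the signal peptide. COPII coats then carry cargo from the ER towards the Golgi, p24 proteins act as cargo receptors, TRAPP complexes help tether the vesicles, and COPI coats return escaped proteins and receptors to the ER. Beta cells put a very large load of proinsulin through this route. Hspa5 codes for BiP, the main chaperone of the ER lumen and a classical target of the unfolded protein response, and Ins2 is the more abundant of the mouse insulin transcripts.

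Levels are given as log2(CPM + 0.562), where CPM is the read count times a factor for each library and 0.562 is the floor in the deposited values. A difference or fold on this scale understates the change of genes with few reads. The factor did not follow the reads over the listed genes alone. KO 3 and KO 6 had 3292303 and 3295299 such reads, but a read was worth 0.390 and 0.265 CPM. A read was worth most in WT 7, KO 3 and KO 2, at 0.411, 0.390 and 0.377 CPM, against a median of 0.268. How the libraries were normalized is unknown here. Reads came from transcript 3′ ends and were not divided by length, so the order of genes is an order of reads only. Over the listed genes a library held 2831137 to 4303680 reads. KO 2, KO 3 and WT 7 stood apart from the other libraries, with 320, 227 and 346 listed genes at 0 reads against a median of 92 over all 18. All 16 measured islet endocrine markers had reads in every library, and the insulin genes Ins1 and Ins2 took 41.4% to 59.5% of reads. Nmrk1, the targeted gene, lay at 1.05, 2.05 and 2.61 in the knockout and 0.53, 2.25 and 3.32 in WT (lowest, median and highest). The Nmrk1 values overlapped. Which exons were removed is unknown here, so 3′ reads may lie outside them and do not check the labels. The groups are therefore named by their labels throughout.

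The 66 genes together took a share of reads of 0.508% ± 0.103 (SD, n = 10) for knockout mice and 0.559% ± 0.0825 (SD, n = 8) for WT mice. Without the reads of Ins1 and Ins2 these shares were 0.991% ± 0.126 and 1.03% ± 0.109. Mean log2 levels ran from 1.72 for Trappc2, a small core subunit of TRAPP, to 8.66 for Ssr4, the delta subunit of TRAP. Median levels per gene corresponded to 3.12 to 412 CPM. In KO 2, 17 of the 66 genes had their lowest value of all 18 libraries, which is 25.8% of them against 16.0% of all listed genes. WT 7 and KO 3 held the lowest value of 12 and 11 more, against 11.7% and 9.86% of listed genes.

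**Figure D1:**
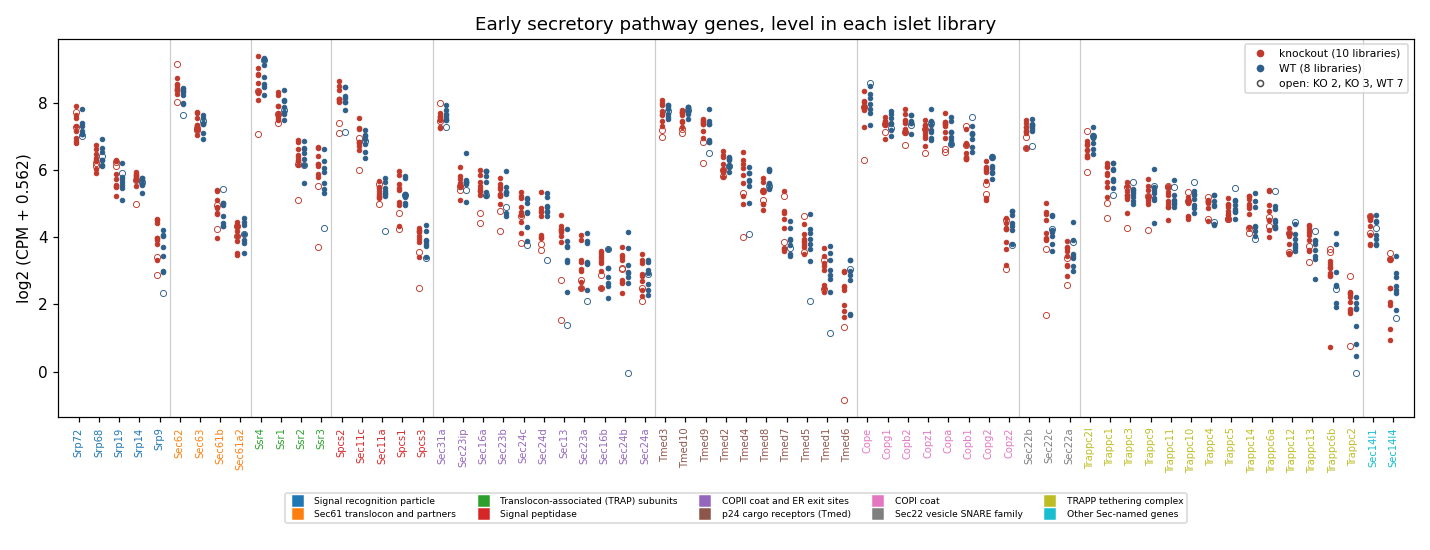
Level of each of the 66 genes in each of 18 libraries, as log2(CPM + 0.562) on the vertical axis, with genes grouped and coloured by role along the horizontal axis. Red points are the 10 knockout libraries, blue points the 8 WT libraries and open points KO 2, KO 3 and WT 7. The colours overlap for every gene, and the lowest point of a gene is often an open one.

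The first comparison asked how these genes differ between islets labelled as NRK1 knockout in beta cells and islets labelled WT. No gene of the 66 passed the test, and neither did any other listed gene: limma with Benjamini-Hochberg adjustment over all genes called 0 of 66 and 0.0% of the 10509 genes at an adjusted p under 0.05. The knockout mean was higher for 28 of the 66 and lower for 38, with a median difference of -0.04, against -0.00 over all genes. This balance turned without WT 5, to 35 higher and 31 lower (median 0.02), and with the Hspa5 level as a covariate, to 39 higher and 27 lower (median 0.05). Without KO 2 it was 33 and 33. At an unadjusted p under 0.05 there were 6 of the 66, beside 5.4% of all genes. That count was 2 without WT 5, 3 without WT 7 and 3 without the variance trend, and 8 without WT 1. Sec62 was the one on the higher side, where 3.18% of all genes lay. Copb1, Copg2, Tmed8, Tmed10 and Trappc2l were on the lower side, where 2.22% of all genes lay. The knockout and WT libraries overlapped for all 66, and 0.00952% of the listed genes showed no overlap.

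The data also bounded the size of any difference. For 93.9% of the 66 genes the 95% interval of the difference lay within a 2-fold change in either direction, against 77.1% of all genes. The p-values measure the spread between these mice, with 1 library each. In bulk islet RNA, fewer cells of a type and less RNA per cell cannot be told apart.

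**Figure D2:**
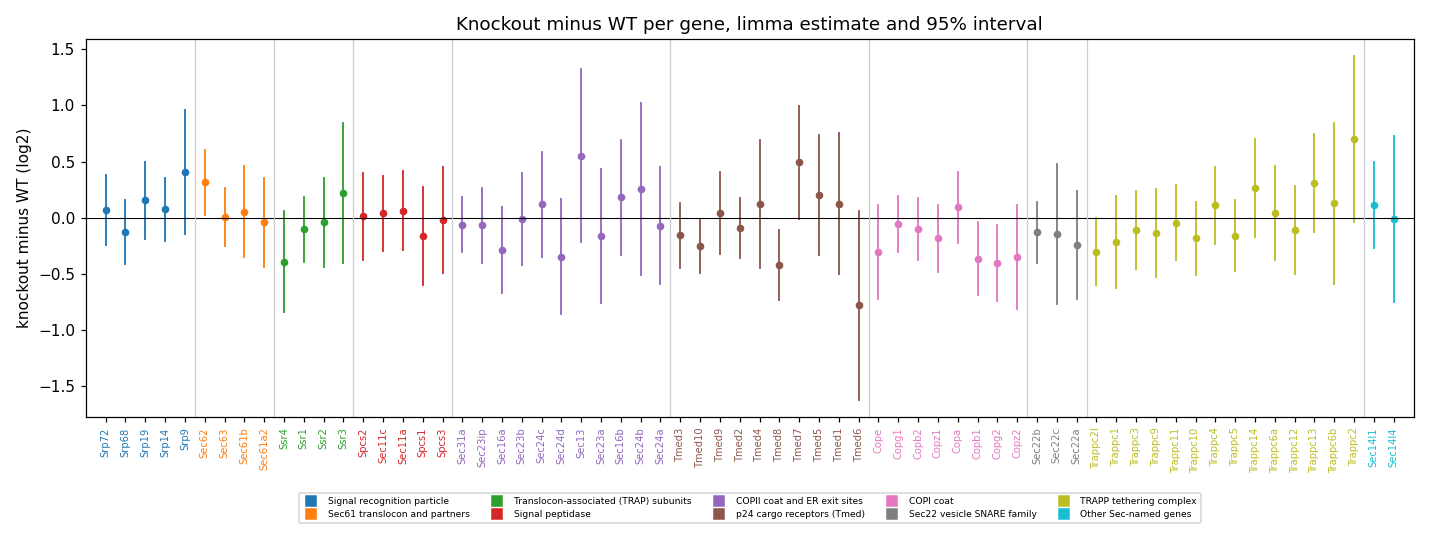
Knockout minus WT for each of the 66 genes, as a difference of log2 levels from limma with its 95% interval, coloured by role. Of the 66 intervals, 6 exclude 0: Sec62 above it, and Copb1, Copg2, Tmed8, Tmed10 and Trappc2l below it.

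The entry machinery of the ER showed small differences in either direction. Srp72, which with Srp68 forms one of the dimers of the signal recognition particle, lay at 6.82, 7.30 and 7.91 in the knockout and 7.02, 7.13 and 7.83 in WT. Srp68 lay at 5.92, 6.28 and 6.76 in the knockout and 6.12, 6.37 and 6.93 in WT. Both sets of values overlapped almost completely, and the differences were 0.07 (SE 0.15) and -0.12 (SE 0.14). Srp9, which with Srp14 slows the ribosome until it reaches the membrane, had the largest difference of the group, at 0.41 (SE 0.27). Its levels were 2.88, 3.95 and 4.55 in the knockout and 2.34, 3.58 and 4.21 in WT, and the limma adjusted p was 0.945. Srp19, which helps the particle's RNA fold, lay at 5.22, 5.81 and 6.29 in the knockout and 5.12, 5.69 and 6.21 in WT, and Srp14 at 4.98, 5.76 and 5.94 in the knockout and 5.31, 5.62 and 5.78 in WT. For Srp14 the KO 2 value was the lowest of all 18 libraries.

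Sec62 had the most reads of the Sec61 group and the only difference there with an unadjusted p under 0.05. It codes for a partner of the Sec61 channel that serves proteins translocated after synthesis and also acts as a receptor for the turnover of ER by autophagy. Sec62 lay at 8.02, 8.42 and 9.16 in the knockout and 7.63, 8.28 and 8.45 in WT, with 8 of 10 knockout libraries above the WT median. The difference was 0.32 (SE 0.14), with a 95% interval of 0.03 to 0.60, and the limma adjusted p was 0.925. The highest Sec62 value was that of KO 2 and the lowest that of WT 7. Its partner Sec63, an ER membrane protein that recruits BiP to the channel, lay at 7.04, 7.29 and 7.73 in the knockout and 6.93, 7.39 and 7.65 in WT, a difference of 0.00 (SE 0.13). Sec61b, the beta subunit of the channel, lay at 3.99, 4.89 and 5.39 in the knockout and 4.33, 4.80 and 5.45 in WT, and Sec61a2, an isoform of its pore subunit, at 3.46, 4.12 and 4.46 in the knockout and 3.55, 4.09 and 4.56 in WT. Neither of those genes separated the groups, with differences of 0.05 (SE 0.20) and -0.04 (SE 0.19).

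Of the TRAP subunits, Ssr4 was lower in 8 of 10 knockout libraries than the WT median. Its levels were 7.07, 8.48 and 9.40 in the knockout and 8.24, 8.95 and 9.33 in WT, and the lowest of these was that of KO 2. The difference was -0.39 (SE 0.22), with a limma adjusted p of 0.945. Ssr3, the gamma subunit, lay at 3.71, 6.15 and 6.68 in the knockout and 4.28, 5.78 and 6.62 in WT, and its difference was 0.22 (SE 0.31). Its spread was wide in both groups, with KO 3 and WT 7 lowest. Ssr2, the beta subunit, lay at 5.11, 6.34 and 6.90 in the knockout and 5.60, 6.42 and 6.87 in WT, and Ssr1, the alpha subunit, differed by -0.10 (SE 0.14).

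The signal peptidase genes had small differences, from -0.16 for Spcs1 to 0.06 for Sec11a. Spcs2, an accessory subunit, had the most reads, at 7.10, 8.11 and 8.65 in the knockout and 7.13, 8.09 and 8.49 in WT. Sec11a and Sec11c code for alternative catalytic subunits. Sec11a lay at 4.99, 5.33 and 5.68 in the knockout and 4.19, 5.35 and 5.76 in WT, and Sec11c at 6.01, 6.84 and 7.54 in the knockout and 6.36, 6.90 and 7.20 in WT. Spcs1, another accessory subunit, lay at 4.24, 5.23 and 5.96 in the knockout and 4.95, 5.27 and 5.82 in WT. The values of all 4 genes overlapped between the groups, and all 5 genes of the group had intervals within a 2-fold change.

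Among the COPII genes, 4 of 11 were higher and 7 lower in the knockout, with a median of -0.06 and no unadjusted p under 0.05. Sec31a, part of the outer coat, had the most reads, at 7.25, 7.55 and 7.99 in the knockout and 7.29, 7.59 and 7.94 in WT, and differed by -0.06 (SE 0.12). Sec13, its partner in the outer coat, lay at 1.54, 4.18 and 4.65 in the knockout and 1.39, 3.52 and 4.26 in WT, with KO 3 and WT 7 at the low ends. Its difference of 0.55 (SE 0.38) had a 95% interval of -0.22 to 1.33, one of the widest of the 66. Sec16a, the scaffold of exit sites, was below the WT median in 8 of 10 knockout libraries, at 4.44, 5.41 and 5.99 in the knockout and 5.24, 5.72 and 5.98 in WT, a difference of -0.29 (SE 0.19). Sec23b, of the inner coat, lay at 4.18, 5.27 and 5.78 in the knockout and 4.63, 5.31 and 5.96 in WT. Sec24b, one of the cargo-binding Sec24 proteins, lay at 2.33, 3.08 and 3.70 in the knockout and -0.04, 2.96 and 4.17 in WT, where the lowest value is 1 read in WT 7.

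Of the p24 genes, 5 of 10 were higher and 5 lower. Tmed8, a p24-like protein, had the smallest unadjusted p of the 66. Its levels were 4.81, 5.36 and 5.77 in the knockout and 5.45, 5.61 and 6.03 in WT, and 8 of 10 knockout libraries lay below the WT median. The difference was -0.42 (SE 0.15), with an unadjusted p of 0.00918 and a limma adjusted p of 0.858. Tmed10, the delta member of the p24 complexes, lay at 7.12, 7.55 and 7.80 in the knockout and 7.51, 7.77 and 7.90 in WT, with 9 of 10 knockout libraries below the WT median and a difference of -0.25 (SE 0.12). Tmed7, a gamma member, went the other way, at 3.58, 4.41 and 5.38 in the knockout and 3.43, 3.84 and 4.48 in WT, a difference of 0.50 (SE 0.25) with a limma adjusted p of 0.93. Tmed3, another gamma member and the one with the most reads, lay at 6.99, 7.65 and 8.10 in the knockout and 7.51, 7.80 and 7.93 in WT. Tmed4, of the alpha family, lay at 4.02, 5.74 and 6.55 in the knockout and 4.09, 5.69 and 6.11 in WT. Tmed6, with 0 to 40 reads per library, had the widest difference, -0.78 (SE 0.41), and KO 2 held its value at 0 reads.

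In the COPI coat 7 of 8 genes had a lower knockout mean, and none passed the test. As a description of the group, the median difference was -0.25, against -0.00 over all genes. Cope, the epsilon subunit, had the most reads, at 6.30, 7.89 and 8.35 in the knockout and 7.36, 8.06 and 8.59 in WT, with 9 of 10 knockout libraries below the WT median. Copg2, an isoform of the gamma subunit, lay at 5.11, 5.81 and 6.28 in the knockout and 5.73, 6.10 and 6.42 in WT, a difference of -0.40 (SE 0.16) with a limma adjusted p of 0.925. Copb1, the beta subunit, lay at 6.32, 6.62 and 7.33 in the knockout and 6.54, 7.08 and 7.58 in WT, a difference of -0.36 (SE 0.16) with the same adjusted p. Copa, the alpha subunit, was the exception, at 6.53, 7.35 and 7.69 in the knockout and 6.78, 7.07 and 7.57 in WT, a difference of 0.09 (SE 0.15). Copb2, the beta-prime subunit, lay at 6.74, 7.32 and 7.83 in the knockout and 7.08, 7.43 and 7.64 in WT.

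The COPI median depended on a few libraries. It was -0.14 without KO 2 and -0.09 without KO 2, KO 3 and WT 7, and in that fit 7 of the 8 genes were still lower. With the Hspa5 level as a covariate it was also -0.09. Hspa5 itself lay at 9.76, 10.85 and 11.44 in the knockout and 10.52, 10.97 and 11.52 in WT, a difference of -0.25 (SE 0.19) with a limma adjusted p of 0.945.

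The vesicle SNARE and tether genes completed the set. Sec22b, a SNARE of the ER to Golgi step, lay at 6.65, 7.16 and 7.49 in the knockout and 6.72, 7.32 and 7.53 in WT. Its relative Sec22a lay at 2.59, 3.41 and 3.90 in the knockout and 2.99, 3.48 and 4.44 in WT. Sec22c, another relative, lay at 1.68, 4.05 and 5.03 in the knockout and 3.59, 4.20 and 4.68 in WT. All 3 had lower knockout means, with differences of -0.24 to -0.13, inside the spread of the libraries. Trappc2l, a TRAPP subunit, had the most reads of its complex, at 5.94, 6.61 and 7.18 in the knockout and 6.48, 6.97 and 7.29 in WT, with 9 of 10 knockout libraries below the WT median. Its difference was -0.30 (SE 0.15), with a limma adjusted p of 0.925. Trappc2 had the largest difference upward, 0.70 (SE 0.36), on 1 to 19 reads per library, and its levels were 0.76, 2.14 and 2.85 in the knockout and -0.04, 1.62 and 2.23 in WT. The levels of Trappc2 overlapped, with KO 2 lowest in its group.

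Trappc1 belongs to the core shared by TRAPP complexes, Trappc9 and Trappc10 to TRAPPII, which acts later in the Golgi, and Trappc11 to TRAPPIII. Trappc1 lay at 4.58, 5.76 and 6.22 in the knockout and 5.26, 5.88 and 6.21 in WT, and Trappc9 at 4.22, 5.20 and 5.74 in the knockout and 4.42, 5.36 and 6.03 in WT. Trappc10 lay at 4.56, 5.08 and 5.34 in the knockout and 4.71, 5.20 and 5.64 in WT, and Trappc11 at 4.51, 5.17 and 5.52 in the knockout and 4.90, 5.09 and 5.70 in WT. All 4 overlapped, and their differences were -0.21 (SE 0.20), -0.13 (SE 0.19), -0.18 (SE 0.16) and -0.04 (SE 0.16). Sec14l1 lay at 3.78, 4.42 and 4.63 in the knockout and 3.77, 4.18 and 4.67 in WT, and Sec14l4 at 0.93, 2.49 and 3.52 in the knockout and 1.60, 2.49 and 3.45 in WT, with differences of 0.11 (SE 0.19) and -0.01 (SE 0.36).

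Animal numbers in the titles form runs of consecutive numbers, and 3 runs with both groups hold 12 libraries. When the run was added as a term in these 12, 53 of the 66 genes were lower in the knockout, the median difference was -0.22 against -0.02 over all genes, and limma called 0 genes. In that fit the median was -0.40 for signal peptidase, -0.36 for TRAP, -0.31 for COPII and -0.25 for COPI. The runs put KO 2 and KO 3 beside WT 1 and WT 2. The labels do not say what such a run stands for.

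The second comparison asked how each gene's level relates to that of Hspa5 from library to library, and many of the 66 were higher where Hspa5 was higher. The slope of a gene on Hspa5, in log2 units per log2 unit of Hspa5 with genotype as a term, was positive for 54 of the 66. By limma with Benjamini-Hochberg adjustment over all genes, 16 of the 66 passed, all with positive slopes, beside 5.72% of all genes with a called positive slope and 9.19% with a called slope of either sign. None of the 66 had a called negative slope, beside 3.47% of all genes. The median slope was 0.33, against 0.02 over all genes. The 16 were Cope, Copb2, Copa, Sec23b, Sec22c, Spcs2, Sec11c, Spcs1, Srp14, Trappc9, Ssr4, Ssr1, Ssr2, Tmed3, Tmed9 and Tmed6.

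The calls were lost when KO 2 was left out. Hspa5 was lowest in KO 2, at 9.76, and next lowest in KO 3, at 10.32. Without KO 2, limma called 0 of the 66 and 17 of all genes, and without both it called 0 and 0. Without KO 2, KO 3 and WT 7 it called 0 of the 66 and 3 of all genes. The median slope of the 66 was 0.30 without KO 2, 0.32 without KO 2 and KO 3, and 0.30 without the 3 libraries, with 52 of 66 positive in each of the last 2 fits. With runs accounted for in 12 libraries, 47 of 66 slopes were positive, the median was 0.28, and 2 of the 66 passed, beside 97 of all genes.

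**Figure D3:**
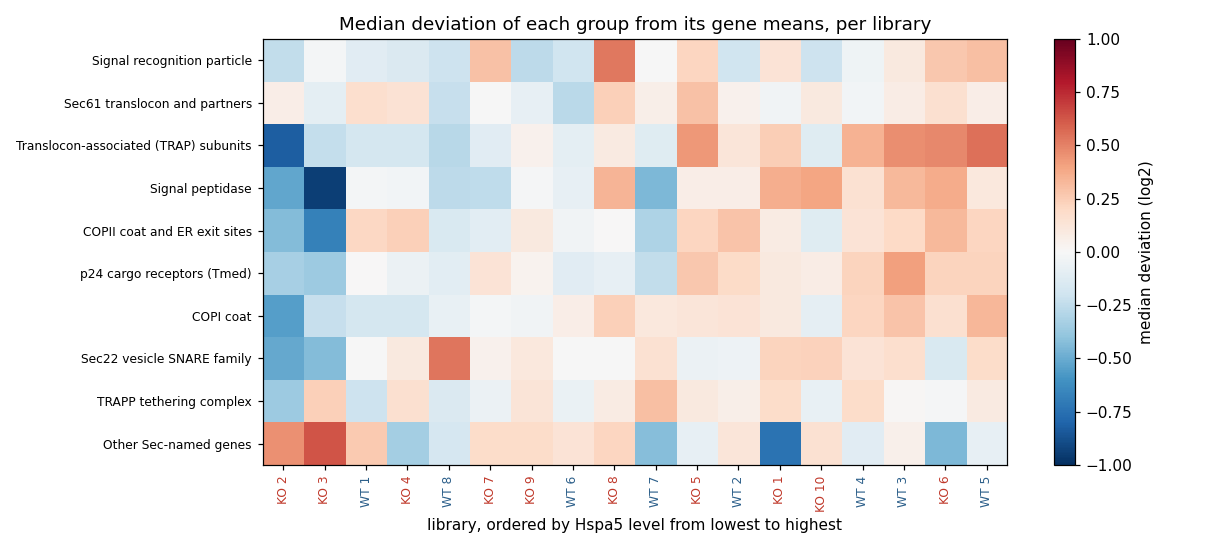
Median deviation of the genes of each role from their own means over the 18 libraries, in log2 units, with libraries ordered from the lowest to the highest Hspa5 level along the horizontal axis (red names knockout, blue names WT). TRAP runs from -0.82 in KO 2 to 0.55 in WT 5. The Sec61 group, with 2 positive and 2 negative slopes on Hspa5, has a median of 0.07 at both ends.

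The relation was uneven over the roles. TRAP had the steepest median slope, 0.91, with 3 of 4 genes called, followed by signal peptidase at 0.64 with 3 of 5. COPII had a median of 0.47 with 1 of 11 called, COPI 0.33 with 3 of 8, the p24 genes 0.32 with 3 of 10, and the signal recognition particle 0.31 with 1 of 5. TRAPP had a median of 0.21 with 1 of 14. The Sec61 group stood at 0.04 with 0 of 4. The 3 Sec22 genes had a median of 0.38 with 1 called. Without KO 2, KO 3 and WT 7 the medians were 0.80 for TRAP, 0.49 for signal peptidase, 0.43 for COPI, 0.18 for Sec22, 0.14 for COPII and 0.10 for the Sec61 group, with no gene called. The order below TRAP also changed with the run as a term in 12 libraries. In that fit TRAP had a median of 0.85, Sec22 0.56, COPI 0.52, TRAPP 0.41, signal peptidase 0.29 with 3 of 5 slopes positive, and COPII 0.24.

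Tmed3 had the closest relation of the 66. Its Pearson r with Hspa5 was 0.92 over 18 libraries and its Spearman rho 0.87, and both had a permutation p of 1e-05, the smallest that 100000 resamples can give. Without KO 2 and KO 3, the libraries farthest from the median of Hspa5, r was 0.83. It was 0.93 within the knockout and 0.92 within WT. The slope was 0.64 (SE 0.12), with a limma adjusted p of 0.00201. These r values are among 132 computed, 66 genes against 2 reference genes, and the limma adjustment over all genes is the one that accounts for many tests. All the points of one library share its depth and its normalization.

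Ssr4 and Ssr2 followed. For Ssr4, r was 0.86 and rho 0.75 (permutation p 1e-05 and 0.00064), the slope was 1.13 (SE 0.17) with a limma adjusted p of 0.000279, and r was 0.74 without KO 2 and KO 3. For Ssr2, r was 0.86 and rho 0.83 (permutation p 2e-05 and 1e-05), the slope was 0.98 (SE 0.16) with a limma adjusted p of 0.000358, and r was 0.76 without the same pair. A slope near 1 means that the level changed about in proportion to Hspa5 over these libraries. Ssr1 had a lower slope, 0.52 (SE 0.14). Ssr3, the remaining TRAP gene, did not pass, with r of 0.37 and a limma adjusted p of 0.126.

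In the COPI coat, Copb2 and Cope lay close to Hspa5 and Copb1 did not. For Copb2, r was 0.85 and rho 0.75 (permutation p 3e-05 and 0.00047), and r was 0.71 without KO 2 and KO 3. Cope had r of 0.79, or 0.64 without that pair, and Copa had 0.75, or 0.62. Copb1 had r of -0.06 and a slope of -0.21 (SE 0.19), the only negative slope of the coat.

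The other groups also held genes with high and low r. In signal peptidase, Spcs1 had r of 0.74, or 0.70 without KO 2 and KO 3, while Sec11a had -0.02. The alternative catalytic subunit Sec11c had 0.67. In COPII, Sec23b had 0.72, or 0.68 without the pair, while Sec31a had 0.07 and Sec24b -0.11. Srp14 had 0.73, or 0.55, and Srp19 had -0.14. Trappc9 had 0.72, or 0.59, and Trappc10 had -0.16. Sec22c had 0.65, which was 0.09 without KO 2 and KO 3, so that its relation rested on those libraries.

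**Figure D4:**
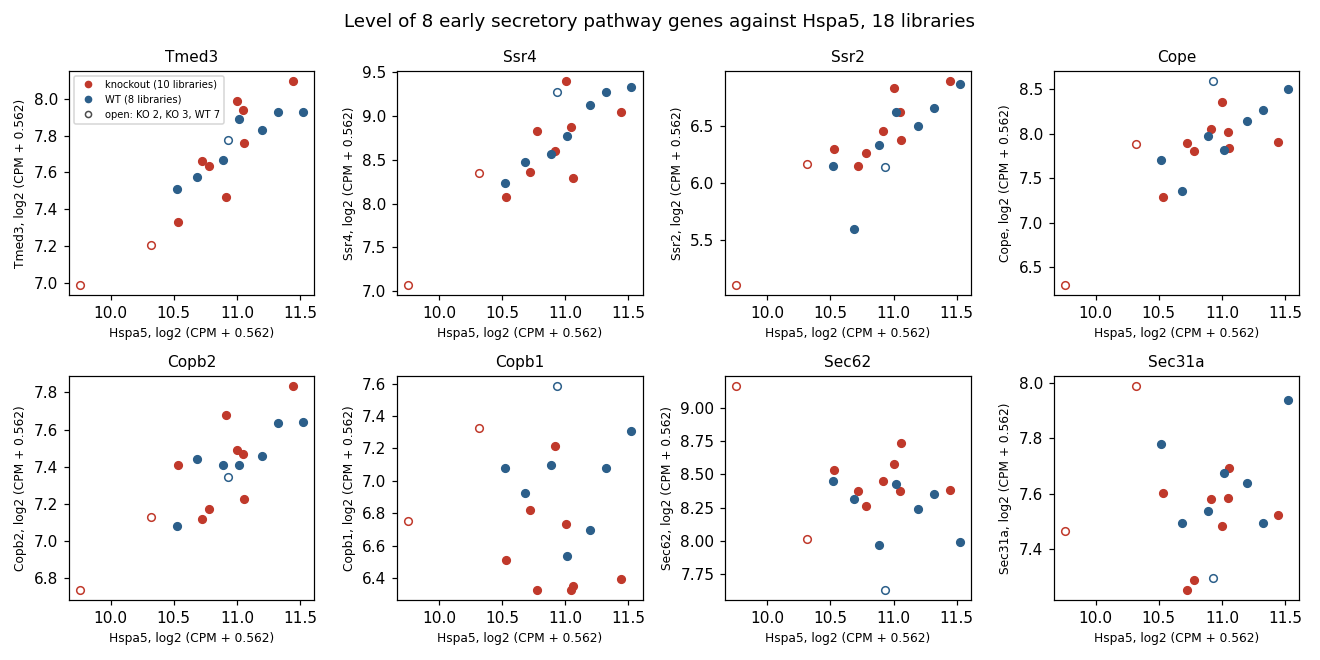
Level of 8 genes (vertical axes) against the level of Hspa5 (horizontal axes), both as log2(CPM + 0.562), with 1 point per library, red for knockout, blue for WT and open for KO 2, KO 3 and WT 7. Tmed3, Ssr4, Ssr2, Cope and Copb2 climb with Hspa5 (r from 0.79 to 0.92), and Copb1, Sec62 and Sec31a do not (r from -0.42 to 0.07).

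A few genes ran against Hspa5 without passing the test. Sec14l4 had r of -0.55, Tmed7 -0.48 and Sec62 -0.42. The slope of Sec14l4 was -1.10 (SE 0.41), with a limma adjusted p of 0.0902. Without KO 2 and KO 3, r was -0.36, -0.38 and -0.18 for the 3 genes.

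The slopes did not differ detectably between genotypes. By limma's interaction of genotype and Hspa5, 0 of the 66 and 0.0% of all genes passed. At an unadjusted p under 0.05 there was 1 of the 66 and 587 of all genes. The 1, singled out after its values were seen, was Srp19, with r of -0.43 in the knockout and 0.69 in WT, a slope difference of -1.02 (SE 0.43) and a limma adjusted p of 0.883.

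Genes that work beside the 66 were counted from lists of the same pathway, and every called slope on Hspa5 in these lists was positive. These calls come from the fit of all 18 libraries, in which 966 of 10508 genes were called, against 17 without KO 2. Of all genes, 601 or 5.72% had a called positive slope, and 5427 of 10508 had a positive slope. Of the oligosaccharyltransferase genes, which attach N-glycans at the translocon, 6 of 10 passed, with a median slope of 0.82. Tmem258, Rpn1 and Ostc had r of 0.86, 0.88 and 0.80, and limma adjusted p of 0.000321, 0.000458 and 0.000626. Of the ER chaperones other than Hspa5, 8 of 18 passed, led by Sdf2l1, P4hb and Pdia3 with r of 0.78, 0.82 and 0.81. Of the translocon and insertion partners 8 of 23 passed, among them Dnajb9, a BiP co-chaperone, and Emc6 and Emc7, of the ER membrane protein complex. Srprb, the beta subunit of the receptor for the signal recognition particle, had r of 0.90. Of the COPII partners 9 of 21 passed and 21 of 21 slopes were positive, with Bet1, a SNARE, Surf4, a cargo receptor, and Ergic1, of the intermediate compartment, first by p. Of the COPI partners 6 of 21 passed, including Kdelr2, which returns chaperones to the ER, and the small GTPases Arf3 and Arf4. Of the tethers and Golgi matrix genes 1 of 16 passed, Rab1a, the GTPase that TRAPP activates.

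Between the genotypes these partner lists gave no call either. The unadjusted p was under 0.05 for 0 of 23 translocon partners, 1 of 10 oligosaccharyltransferase genes, 1 of 21 COPII partners, 0 of 21 COPI partners, 2 of 16 tethers and 1 of 19 chaperones, beside 5.4% of all genes. The smallest was that of Golga2, a Golgi matrix protein, with a difference of -0.36 (SE 0.11), an unadjusted p of 0.00341 and a limma adjusted p of 0.797. Pdia4, an ER oxidoreductase, differed by -0.36 (SE 0.17), and Yif1a, of the ER to Golgi step, by -0.37 (SE 0.16).

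Promoters were read for every gene of the 66 that had a window, whatever its relation to Hspa5. Hspa5 itself has well known stress-response elements close to its start. The windows are the 250 bases before the transcript start, from RefSeq on GRCm38.p6, each written 5′ to 3′ on the gene's own strand. Capitals mark TGACGTG or its reverse complement CACGTCA, the core of the unfolded protein response element (UPRE), and in Hspa5 also CCAAT and CCACG with the 9 bases between them, the ER stress response element (ERSE). Hspa5 is shown because it holds both, Tmed3 because it had the highest r with neither motif in its window, and Copb1, Sec16b and Sec24d because they hold the UPRE core. The Hspa5 window is chr2:34771840-34772089 on the plus strand, that of Tmed3 chr9:89705044-89705293 on the minus strand, that of Copb1 chr7:114254681-114254930 on the minus strand, that of Sec16b chr1:157506546-157506795 on the plus strand and that of Sec24d chr3:123267246-123267495 on the plus strand.
Hspa5: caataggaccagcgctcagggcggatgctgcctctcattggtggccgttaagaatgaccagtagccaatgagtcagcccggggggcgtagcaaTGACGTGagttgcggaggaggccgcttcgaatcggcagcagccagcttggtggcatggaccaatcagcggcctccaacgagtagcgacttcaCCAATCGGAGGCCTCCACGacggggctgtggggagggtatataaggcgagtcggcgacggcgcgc
Tmed3: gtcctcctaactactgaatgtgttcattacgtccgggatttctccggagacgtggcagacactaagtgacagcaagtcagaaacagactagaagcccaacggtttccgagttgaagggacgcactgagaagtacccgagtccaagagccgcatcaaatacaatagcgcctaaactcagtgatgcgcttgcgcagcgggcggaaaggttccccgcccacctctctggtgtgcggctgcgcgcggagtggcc
Copb1: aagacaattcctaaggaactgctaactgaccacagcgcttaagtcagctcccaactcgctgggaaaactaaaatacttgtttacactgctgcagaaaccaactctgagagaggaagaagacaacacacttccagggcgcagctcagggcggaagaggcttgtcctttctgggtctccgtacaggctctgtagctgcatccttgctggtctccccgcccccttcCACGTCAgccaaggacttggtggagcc
Sec16b: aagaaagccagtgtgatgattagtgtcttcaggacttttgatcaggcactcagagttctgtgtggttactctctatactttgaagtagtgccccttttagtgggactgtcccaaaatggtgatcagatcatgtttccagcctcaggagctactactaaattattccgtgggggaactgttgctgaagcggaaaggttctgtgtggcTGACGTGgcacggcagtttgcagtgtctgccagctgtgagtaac
Sec24d: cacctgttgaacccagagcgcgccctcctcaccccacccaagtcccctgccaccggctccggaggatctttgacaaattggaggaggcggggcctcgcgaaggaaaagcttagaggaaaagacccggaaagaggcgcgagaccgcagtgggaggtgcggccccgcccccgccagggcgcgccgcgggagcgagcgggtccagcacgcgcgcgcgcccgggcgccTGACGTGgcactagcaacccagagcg

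Of the 66 genes 54 had such a window, and the UPRE core was found on either strand in 3 of them, 5.56%, against 1.85% of 27025 genes. The 27025 are all genes with a window, not only the 10509 listed here, so the shares of genes in this paragraph come from a wider set. The UPRE core starts 27 bases before the transcript start in Copb1, 44 bases before it in Sec16b and 26 bases before it in Sec24d. For Sec16b and Sec24d that transcript start is not the gene's first base, which is 157506733 and 123264801. The match therefore lies inside the span of these genes. A second Sec16b window, chr1:157525920-157526169, is not shown and held no core. None of the 3 had a called slope on Hspa5, with r of -0.06 for Copb1, 0.04 for Sec16b and 0.54 for Sec24d. Of the 16 genes with a called slope 13 had a window, and 0 of the 13 held the core. When the 50 bases after the start were added, Copb2 and Sec23a also held it, 5 of 54 or 9.26%, against 2.22% of genes. Copb2 has a called slope, so that 1 of the 13 held the core in the longer window. The ERSE was found in 0 of the 54 windows and in 0.13% of genes. The cyclic AMP response element core TGACGTCA, which shares bases with the UPRE core, was found in Cope only of the 54, against 1.77% of genes. A match describes letters in a window and is not a measured binding site.

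Most of the 66 genes had a negative slope on Ins2. Ins2 lay at 18.33, 18.72 and 19.46 in the knockout and 18.16, 18.36 and 19.03 in WT, with KO 3 highest at 19.46. Of the 66 genes 48 had a negative slope on Ins2 and 18 a positive one, with a median of -0.28 against -0.05 over all genes. By limma with Benjamini-Hochberg adjustment 6 of the 66 passed, all negative, beside 2.15% of all genes with a called negative slope, 0.552% with a called positive one and 2.7% with either. The 6 were Sec13, Ssr3, Tmed4, Trappc14, Sec16a and Spcs2. Ins2 itself took 33.4% to 56.1% of reads. With values rescaled without the reads of Ins1 and Ins2, 6 of the 66 again passed, 5 of them shared, and the median slope was -0.35 against -0.11 over all genes.

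Sec16a had the most negative r with Ins2, -0.80, with rho of -0.69 (permutation p 7e-05 and 0.00228). Its slope was -1.02 (SE 0.24), with a limma adjusted p of 0.0218. Without KO 3 and WT 7, the libraries farthest from the median of Ins2, r was -0.67. Ssr3 had a slope of -1.86 (SE 0.37) with a limma adjusted p of 0.00686, and its r went from -0.60 to -0.05 without KO 3 and WT 7. Tmed4, a p24 protein of the alpha family, had a slope of -1.63 (SE 0.34) with a limma adjusted p of 0.0101, and its r went from -0.62 to -0.22. Sec13 had a slope of -1.96 (SE 0.51) with a limma adjusted p of 0.0343, while its rho was -0.10 and its r was 0.16 without the pair. Of these 4 genes only Sec16a kept most of its r without the pair, and the r of Sec13 changed sign.

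The calls on Ins2 depended on KO 3 and WT 7. Limma called 0 of the 66 and 2 of all genes without KO 3, and 0 of the 66 and 19 of all genes without WT 7. Without KO 2, KO 3 and WT 7 it called 0 of all genes, the median slope of the 66 was -0.04, and 31 of 66 were positive. The slope of Sec13 was then 0.40. Without KO 6 the count was 3 of the 66 and 156 of all genes, and without KO 7 it was 9 and 590. Hspa5 and Ins2 had r of -0.42 with each other and rho of -0.33 (permutation p 0.0857 and 0.188), or r of -0.02 without the 3 libraries.

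Over the roles the p24 genes had negative Ins2 slopes in 10 of 10, COPII in 10 of 11, TRAP in 4 of 4 and signal peptidase in 4 of 5, beside 5595 of all 10508 genes tested. Without KO 2, KO 3 and WT 7 the negative slopes numbered 6 of 10 for p24, 6 of 11 for COPII, 3 of 4 for TRAP and 3 of 5 for signal peptidase. With the run as a term in 12 libraries TRAP turned to 3 of 4 positive, with a median of 0.15, while p24 had 9 of 10 negative and COPII 9 of 11. The TRAPP genes were mixed, with 8 of 14 positive and a median of 0.11. Trappc11 had the highest r of the 66 with Ins2, 0.48, or 0.34 without KO 3 and WT 7, and Trappc1 had -0.63, or -0.50. In the Sec61 group r ran from -0.08 for Sec63 to 0.17 for Sec61b. In the COPI coat it ran from -0.52 for Copa to 0.21 for Copb1. Srp19 had 0.29 and Srp9 -0.35. None of the genes named in this paragraph had a called slope on Ins2.

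**Figure D5:**
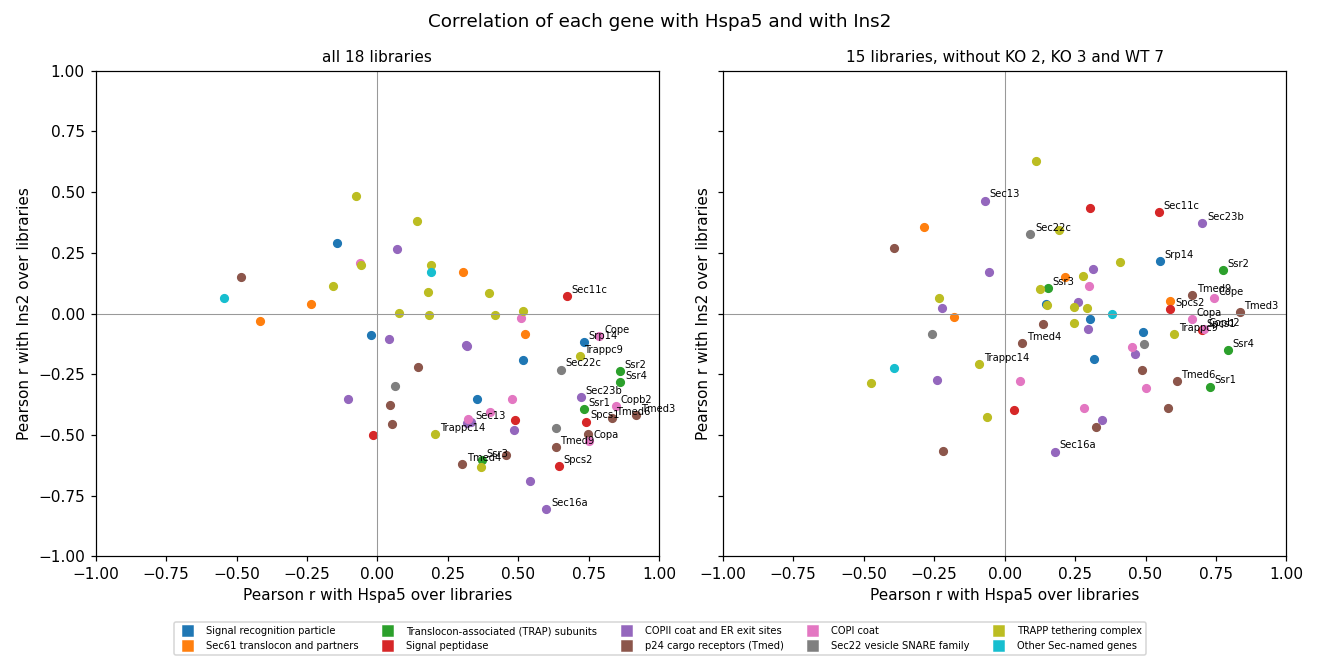
Pearson r of each of the 66 genes with Hspa5 (horizontal axis) and with Ins2 (vertical axis), over all 18 libraries on the left and over 15 libraries without KO 2, KO 3 and WT 7 on the right, coloured by role, with the genes that had a called slope named. On the left 54 points lie right of 0 and 48 lie below 0. On the right 52 still lie right of 0, and 35 lie below 0.

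Markers of other cells were present in these islets and differed between libraries. The mean log2 level of 16 measured acinar genes, from the enzyme-secreting exocrine pancreas, ran from 1.70 in KO 7 to 6.56 in KO 5, with a knockout mean of 4.13 ± 1.44 (SD, n = 10) and a WT mean of 4.04 ± 1.50 (SD, n = 8). Their summed level was 87.5 to 2358 CPM in the knockout and 94.9 to 2244 CPM in WT, and 5 of the 16 were at 0 reads in 1 library each. All 16 had a positive slope on Hspa5, beside 5427 of all 10508 genes, and 1 passed, beside 5.72% of all genes called positive. The acinar mean had r of 0.27 with Hspa5 and 0.46 with the mean of the 66 genes. With the acinar mean as a covariate the slope on Hspa5 passed for 16 of the 66, as without it, and the slope on Ins2 for 2.

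Stromal markers ran against the early secretory genes. All 10 had negative slopes on Hspa5 and 2 passed, and their mean had r of -0.68 with Hspa5 and -0.66 with the mean of the 66 genes. It was highest in KO 2, at 3.52, and lowest in WT 5, at 1.85. The summed stromal level was 186 to 479 CPM in the knockout and 200 to 439 CPM in WT. The mean of 11 endothelial markers had r of -0.56 with Hspa5 and was also highest in KO 2. The part of stromal and endothelial cells in the relation to Hspa5 was not tested. Immune and ductal means had r of -0.06 and 0.53 with Hspa5.

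Adipocyte and islet endocrine markers were also compared between the genotypes, and no gene of either list passed the adjusted test. The 3 adipocyte markers all had higher knockout means, beside 5212 of all 10509 genes. Of the 3, 2 had a limma unadjusted p under 0.05, beside 3.18% of all genes on the higher side. Their mean log2 level was 3.45 ± 0.68 (SD, n = 10) for knockout mice, against 2.74 ± 0.36 (SD, n = 8) for WT mice, and their summed level was 26.3 to 106 CPM against 20.4 to 43.7 CPM. Fabp4, a fatty acid binding protein of fat cells, had the smallest p of the 3 and differed by 0.78 (SE 0.21) with a limma adjusted p of 0.797. The adipocyte mean had r of 0.01 with Hspa5. Of the 16 endocrine markers 13 had lower knockout means and 3 higher, beside 5297 of all 10509 genes lower. Their median difference was -0.13, against -0.00 over all genes. Among them Ins1 differed by -0.68 (SE 0.33) with a limma adjusted p of 0.926, and Ins2 by 0.28 (SE 0.64). The Cre is named for Ins1, and whether its allele affects the level of Ins1 was not tested. The summed endocrine level had a higher median in the knockout, 522340 CPM against 450147 CPM in WT. Its range was 401455 to 801663 CPM in the knockout and 417339 to 680364 CPM in WT. The part of adipocytes and endocrine cells in the differences between genotypes was not tested.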

How the data were processed

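Islet RNA was sequenced from its 3′ ends with the QuantSeq FWD kit, per the labels' protocols, from 50 ng of RNA per mouse. STAR 2.5.2, HTSeq 0.6.1, edgeR and GRCm38 appear in the submitters' processing notes, with no role stated for any of them. The authors' annotation and low-gene filter are unknown here. The deposited file holds log2 values for 10509 genes in 18 libraries. Their lowest value is -0.83 in each library. After that floor was subtracted on the linear scale, 100% of values were whole multiples of 1 read within 0.05 reads, so the deposited log2 values were taken as log2(CPM + 0.562) and whole reads were recovered. One read was worth 0.238 to 0.411 CPM, and the median gene had 60 reads in a library. Read numbers carry counting error only, since PCR copies are not independent molecules.

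Groups follow the genotype label, and no replicate number or pairing is labelled. The 73 same-group pairs differed by more than sampling noise (chi-square per degree of freedom 6.01 to 41.3), so each counted as 1 sample. The members, the pathway and marker lists and the tests were chosen with earlier results of these data known.

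Differences and slopes were estimated with limma 3.58.1 in R 4.3.3 (mean-variance trend, two-sided) over all genes, with Benjamini-Hochberg adjusted p under 0.05. Slopes had genotype as a term. Pearson r and Spearman rho had permutation p from 100000 resamples (SciPy 1.17.1). Values were named by a set rule: in each role, the gene with the most reads, the smallest p in each direction and the highest and lowest r with either reference gene, and up to 3 genes per pathway list. Genes with a called slope or an unadjusted p under 0.05, and those holding a motif, were named as well. Alternatives covered the filter, the pseudocount, centring, quantile normalization, rescaling without insulin reads, voom, sample weights, robust estimation, a rank-sum test, covariates, runs of animal numbers and leaving out libraries. With log2 values deposited, voom on recovered reads stood in for a count test. Having Ins2 as a covariate for Hspa5, and the reverse, was added after seeing the data. Promoter windows came from RefSeq on GRCm38.p6, and coordinates of the genes were matched for all 66.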

Additional observations from a re-analysis of the deposited data

Results flagged for a closer look

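Single libraries far from the rest of their group were looked for with Dixon's test in each group for the 66 genes, Hspa5 and Ins2. Of the 136 sets of values tested, 17 had such a library, all of them among the 66 genes. That is 12.5%, where chance gives about 1 in 20 for a single set. The share was not computed over all listed genes, and all sets come from the same 18 libraries. KO 2, WT 7 and KO 3 also held the lowest value of 16.0%, 11.7% and 9.86% of all listed genes. Whether the excess is particular to the 66 genes was not tested. The low values were mostly those of KO 2, KO 3 and WT 7, with 7, 3 and 4.

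In KO 2 the low genes were Cope at 6.30, Sec22c at 1.68, Srp14 at 4.98, Trappc2 at 0.76, Trappc9 at 4.22, Ssr2 at 5.11 and Tmed6 at -0.83, which is 0 reads. Of these, 6 had a called slope on Hspa5, beside 16 of the 66. KO 2 also had the lowest Hspa5, so a low value there itself adds to a positive slope. Without KO 2 none of the 66 had a called slope. In KO 3 the low genes were Spcs3, an accessory subunit of signal peptidase, at 2.50, Ssr3 at 3.71 and Tmed9, a p24 protein, at 6.20. In WT 7 they were Sec24b at -0.04, Sec24d at 3.32, Sec22b at 6.72 and Sec11a at 4.19.

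The others were Trappc6b in KO 7, low at 0.75, and 2 high values in WT 5, Sec23ip at 6.51 and Srp72 at 7.83. WT 5 had the highest Hspa5 of the 18 libraries, at 11.52.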

How the results depend on the processing

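No paired analysis was possible because the labels give no replicate numbers and tie no knockout library to a WT library. Runs of animal numbers were used as a term instead. Between genotypes limma called 0 of the 66 under every alternative run. It called 0 of all genes as well, except with the Hspa5 level as a covariate, where 2 genes passed. Leaving out each library gave 0 to 0. The sign of an uncalled difference changed in 118 of 2174 refits, in 37 of the 66 genes.

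For the slope on Hspa5, 966 genes and 16 of the 66 passed. The counts were 97 and 2 in the 12 libraries with the run as a term, 0 and 0 without the 2 libraries farthest from the median, and 3 and 0 without KO 2, KO 3 and WT 7. All genes numbered 530 without the variance trend and 1514 at an adjusted p under 0.10. Leaving out each library gave 17 to 1133 genes and 0 to 17 of the 66, lowest without KO 2. Over 495 values from the alternatives no called slope changed sign, and 78 of the values no longer passed. The threshold of 0.10, the stricter filter and the fit without the variance trend keep the main slopes, so no sign could change there.

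For the slope on Ins2, 284 genes and 6 of the 66 passed. The counts were 39 and 1 in the 12 libraries with the run as a term, 86 and 2 with the acinar mean as a covariate, 39 and 1 with no genotype term, and 144 and 3 without the variance trend. They were 0 and 0 without the 2 farthest libraries, 0 and 0 without KO 2, KO 3 and WT 7, and 617 and 10 at an adjusted p under 0.10. Leaving out each library gave 2 to 590 genes and 0 to 9 of the 66, lowest without KO 3. The slope of Sec13 reversed to 0.40 without KO 2, KO 3 and WT 7. Fewer libraries enter some of these fits, and otherwise the cause was not tested. Quantile normalization could not be fitted for Ins2, which was the top gene in each library. Depth limits genes such as Trappc2 and Tmed6, with 0 to 40 reads.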
